A study of Mus musculus with 1376 samples.

Results

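Nuclear-encoded oxidative phosphorylation genes are the genes of the cell nucleus whose proteins build the 5 complexes of the mitochondrial inner membrane that turn respiration into ATP. They were followed here across the cell classes of mouse lung in single-cell RNA-seq of smooth muscle and related cells. Members were taken by symbol: every protein-coding Nduf gene with a subunit letter and number, Sdha to Sdhd, and all Uqcr, Cox4 to Cox8 and Atp5 genes, without Ndufa4l2 and Cox4i2. The rule found 82 of the 46517 genes in the table. They comprised 35 genes of complex I, 4 of complex II, 8 of complex III, 18 of complex IV and 17 of complex V.

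The study sequenced 1376 cells from the lungs of 3 mice, 1 female and 2 males, by Smart-Seq2, a plate method that reads whole transcripts and carries no molecular identifiers. All animals were of the strain ACTA2GFP:CSPG4dsRED, whose name joins ACTA2 and CSPG4 to the fluorescent proteins GFP and dsRED, and were labelled as 8 to 30 weeks old. No treatment or mutant was compared, so the comparisons are between classes of cells taken from the same animals. The female mouse filled 1 plate, male mouse 1 the plates 045s and 046s, and male mouse 2 another plate, so that sex, animal and plate cannot be told apart. Sexes and ages are those of the sample labels, while the series description speaks of males alone and of a narrower age range. The sources used here do not state the sorting gate.

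Complexes I to IV pass electrons from NADH and succinate to oxygen and, except for complex II, pump protons, and complex V uses the proton gradient to make ATP. Complex II is encoded wholly in the nucleus, while the other complexes also hold subunits read from mitochondrial DNA. In complex IV, cytochrome c oxidase, several small subunits exist as paired isoforms, a form found in most tissues and one best known from heart and skeletal muscle, testis or lung. Factors such as NRF1, GABPA of the ETS family, YY1 and the oestrogen-related receptors are known to bind promoters of these genes.

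Promoter letters are shown for the 4 genes on which the class differences below turn and for which RefSeq gave an entry: Ndufa4, Cox6a1, Cox6b2 and Cox8b. Each run holds the 250 bases before the start in RefSeq's GRCm38.p6, read 5′ to 3′ on the gene's strand, which is the minus strand in all 4. They lie at chr6:11907451-11907700, chr5:115348959-115349208, chr7:4753095-4753344 and chr7:140900447-140900696. Capitals mark matches to 2 motifs, that of NRF1 and the ETS core bound by GABPA (CCGGAAG, here read from the other strand).
Ndufa4: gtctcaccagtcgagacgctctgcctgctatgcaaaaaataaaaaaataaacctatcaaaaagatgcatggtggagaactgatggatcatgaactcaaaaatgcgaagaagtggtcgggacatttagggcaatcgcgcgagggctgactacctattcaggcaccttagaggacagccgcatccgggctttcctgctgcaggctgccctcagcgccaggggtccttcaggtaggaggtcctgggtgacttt
Cox6a1: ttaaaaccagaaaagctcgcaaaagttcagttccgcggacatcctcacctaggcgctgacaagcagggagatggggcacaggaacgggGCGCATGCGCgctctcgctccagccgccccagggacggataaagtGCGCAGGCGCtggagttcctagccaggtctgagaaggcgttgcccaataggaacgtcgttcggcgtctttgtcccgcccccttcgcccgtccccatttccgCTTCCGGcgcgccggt
Cox6b2: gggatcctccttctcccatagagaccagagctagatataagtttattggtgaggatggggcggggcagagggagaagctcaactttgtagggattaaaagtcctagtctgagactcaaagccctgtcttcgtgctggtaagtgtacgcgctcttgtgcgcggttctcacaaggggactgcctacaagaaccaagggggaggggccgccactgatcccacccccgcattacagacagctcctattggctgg
Cox8b: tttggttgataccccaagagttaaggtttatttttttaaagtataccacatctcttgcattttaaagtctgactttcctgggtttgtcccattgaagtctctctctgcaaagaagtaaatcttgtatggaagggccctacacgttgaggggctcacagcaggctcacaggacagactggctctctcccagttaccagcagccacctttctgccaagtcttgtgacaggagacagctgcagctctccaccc
Cox6a1, the form of subunit VIa found in most tissues, held 2 NRF1 matches, starting at -162 and -117 from its start, and 1 ETS match at -16. The printed windows of Ndufa4, Cox6b2 and Cox8b held none of the 4 motifs searched, which says only that these letters are not there.

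RefSeq gave promoters for 68 of the 82 members, and the motifs were searched on both strands from 250 bases before to 50 after each start. NRF1 letters stood in 16 of the 68 (23.5%), against 4.78% of 27025 promoters. ETS letters stood in 15 (22.1%, against 9.12%), YY1 letters (AAGATGGC) in 9 (13.2%, against 2.88%) and those of the oestrogen-related receptors (TCAAGGTCA) in 2 (2.94%, against 0.407%). Sdha, the flavoprotein of complex II, held 3 NRF1 matches. A match describes letters and was not tested as a binding site.

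Cells were clustered without the members and without the mitochondrially encoded genes, and a cluster was named "-like" from marker genes. The classes set beside each other were airway smooth muscle cell (SMC)-like, pericyte-like, alveolar myofibroblast-like, alveolar fibroblast-like, adventitial fibroblast-like and vascular SMC-like. All cells of a class in a mouse, at least 11, were summed, and the 3 sums were the replicates. Of the pericyte-like cells, 85 came from the female mouse, 21 from male mouse 1 and 11 from male mouse 2. Own markers summed to 10870 to 19186 CPM in pericyte-like cells, against 11.7 to 48.3 CPM for the 8 endothelial and 70.99 to 145.04 CPM for the 9 epithelial markers there. Averaged over the 4 shared smooth muscle markers (Acta2, Myh11, Cnn1 and Tagln), a marker had a count in 96.8% of macrophage-like and 87.7% of endothelial-like cells. These classes should lack them, so a share of cells with a count is given below only beside the level in CPM. A cell held 50835 to 1074103 counts (median 230688), and the sums of a class in a mouse from 2047774 to 78061863. Labels name the tissue as lung, while their dissociation protocol speaks of heart.

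Members held 1.10% of all counts in the table, beside 0.923% in the 13 mRNAs of mitochondrial DNA. A cell had a count for 17 to 77 of the 82 members, with a median of 59. In total 80 members passed the filter on low counts. The 2 that did not were Cox7b2, with 16 counts in 2 cells, and Cox8c, with 1 count. Both are isoforms best known from testis. Exons of 26 members overlap those of another gene, and the sources used here do not say how reads on both strands, or reads with several matches, were counted. Pseudogene rows whose symbols match the rule numbered 10, so members with near-identical copies are uncertain to the extent that reads were split between them.

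Levels per kilobase of exon, averaged over the 6 classes, were highest in complex V for Atp5b, the catalytic beta subunit of ATP synthase (476.5 CPM per kb), and lowest there for Atp5s (7.30 CPM per kb). In complex IV, Cox4i1, the common form of subunit IV, led with 415.5 CPM per kb, and Cox8c stood at 0. Complex I ranged from 225.8 CPM per kb for Ndufa11, a membrane-arm subunit, down to 13.6 CPM per kb for Ndufb2. Lengths are those of the principal transcript, the longest where several were tagged, and Ndufb2 was given 4371 bases. Its place as lowest rests on that length, since it had 59.3 CPM, against 15.8 CPM for Ndufb4. Core subunit Uqcrc1 led complex III with 209.6 CPM per kb and Uqcrq was lowest with 34.7 CPM per kb. Complex II ran from 151.1 CPM per kb for Sdha to 63.6 CPM per kb for Sdhd, a membrane anchor.

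As a share of all counts of a class, the members took 1.19% ± 0.222 in airway SMC-like, 0.847% ± 0.180 in pericyte-like, 0.845% ± 0.162 in alveolar myofibroblast-like, 0.793% ± 0.169 in alveolar fibroblast-like, 0.716% ± 0.122 in adventitial fibroblast-like and 1.09% ± 0.198 in vascular SMC-like cells (SD, n = 3 mice). In vascular SMC-like cells alone the 3 mice ran from 0.956% to 1.32%. Within each plate the pericyte-like, myofibroblast-like and fibroblast-like classes lay below vascular SMC-like cells. On the plate of the female mouse the shares were 0.940% in airway SMC-like, 0.735% in pericyte-like, 0.721% in alveolar myofibroblast-like, 0.657% in alveolar fibroblast-like, 0.655% in adventitial fibroblast-like and 0.956% in vascular SMC-like cells. On the plate of male mouse 2 they were 1.25%, 0.750%, 0.787%, 0.740%, 0.636% and 1.004% in the same order of classes. On plate 046s airway SMC-like cells had 1.42%, pericyte-like 1.08%, alveolar myofibroblast-like 1.06%, alveolar fibroblast-like 1.11% and vascular SMC-like 1.40%. On plate 045s airway SMC-like cells had 1.31%, alveolar myofibroblast-like 0.989%, alveolar fibroblast-like 0.834% and vascular SMC-like 1.25%. Airway SMC-like cells thus lay above vascular SMC-like cells on 3 of the 4 plates and below on that of the female mouse. Classes with under 10 cells on a plate have no value there.

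**Figure D1:**
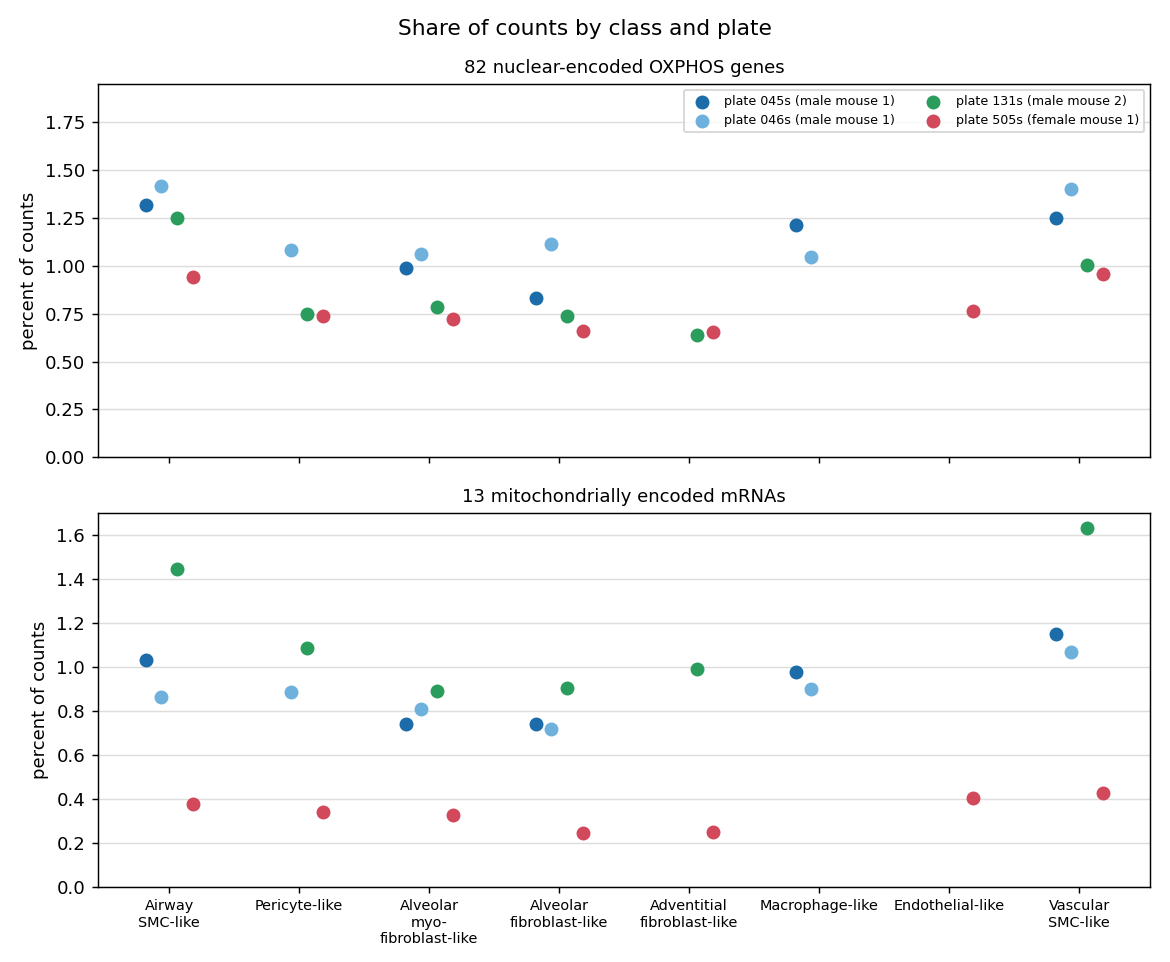
Percent of a class's counts in the 82 members (upper panel) and in the 13 mitochondrially encoded mRNAs (lower panel), by class on the x axis, with 1 point for each plate holding at least 10 cells of the class. Alveolar fibroblast-like cells, at 0.657% to 1.11%, lie below vascular SMC-like cells of the same plate on all 4 plates, and the plate of the female mouse is low in both panels.

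Pericytes wrap capillaries and smooth muscle wraps larger vessels. Pericyte-like cells were set first against vascular SMC-like cells. Ndufa4, a subunit now placed in complex IV although named for complex I, fell in pericyte-like cells. Pericyte-like cells of the female mouse, male mouse 1 and male mouse 2 had 20.2, 11.1 and 3.95 CPM, against 76.6, 150.98 and 118.3 CPM in vascular SMC-like cells of the same mice. Every pericyte-like value lay below every vascular SMC-like value. The means were 11.7 ± 8.14 CPM in pericyte-like and 115.3 ± 37.3 CPM in vascular SMC-like cells (SD, n = 3), a log2 fold change of -3.08 ± 0.57 (SE), with an adjusted p of 0.00682 in edgeR's quasi-likelihood test. Levels here and below are CPM, counts scaled to the library total with edgeR's TMM factors, and a gene was called at an adjusted p under 0.05. Ndufa4 was the 1 member called of the 80 tested, where 3.35% of all 16339 genes tested were called. The call was lost without male mouse 1 (log2 fold change -2.77, adjusted p = 0.276) and without male mouse 2 (-2.55, adjusted p = 0.127), and with the other classes left out of the fit (-3.37, adjusted p = 0.147). Without the female mouse it held, at -4.13 (adjusted p = 0.00977), and over all 14 alternatives that could be run the log2 fold change lay between -4.36 and -2.55. In those 3 fits without the call, 0.534%, 0.969% and 1.47% of all genes tested were called.

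The gene (ENSMUSG00000029632, chr6:11900292-11907497, minus strand, GRCm38) has no exon that overlaps another gene's. It had a count in 34.2% of pericyte-like cells at a median depth of 198653 counts, against 96.4% of vascular SMC-like cells at 215548 counts. The pericyte-like class joined 2 clusters, both of which lay low. In the one led by Col8a1 and Adora1, 29 of 73 cells had a count (23.4 CPM over the cluster before TMM scaling). In the one led by Clstn2 and Adcy8, 11 of 44 cells had 13 counts in all (1.59 CPM), with no more than 3 in a cell. Within plates, unscaled levels were 14.3 CPM in pericyte-like against 174.5 CPM in vascular SMC-like cells on 046s, 4.40 against 110.6 CPM on the plate of male mouse 2, and 19.8 against 73.7 CPM on that of the female mouse. In the other classes Ndufa4 averaged 138.5 ± 73.99 CPM in airway SMC-like, 78.7 ± 30.2 in alveolar myofibroblast-like, 95.02 ± 42.3 in alveolar fibroblast-like and 55.9 ± 21.5 in adventitial fibroblast-like cells (SD, n = 3), levels that overlapped each other.

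Its paralogue Ndufa4l2, known as a target of hypoxia-inducible factor and not a member, went the other way. Pericyte-like cells had 557.1, 620.1 and 732 CPM in the female mouse, male mouse 1 and male mouse 2, against 37.5, 5.06 and 27.2 CPM in vascular SMC-like cells (log2 fold change 5.42 ± 0.89, adjusted p = 0.00325, edgeR). Cox4i2, the lung-enriched form of subunit IV and also outside the rule, had 572.6, 528.4 and 1044 CPM in pericyte-like against 40.4, 58.9 and 46.6 CPM in vascular SMC-like cells (3.91 ± 0.75, adjusted p = 0.00865). Neither gene entered the clustering that made these classes, and Ndufa4l2 stood among the leading genes of 1 of the pericyte-like clusters. Cox4i1, the common form, had 256.9, 414.6 and 229.7 CPM in pericyte-like against 380.4, 488.96 and 401.2 CPM in vascular SMC-like cells and was not called.

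**Figure D2:**
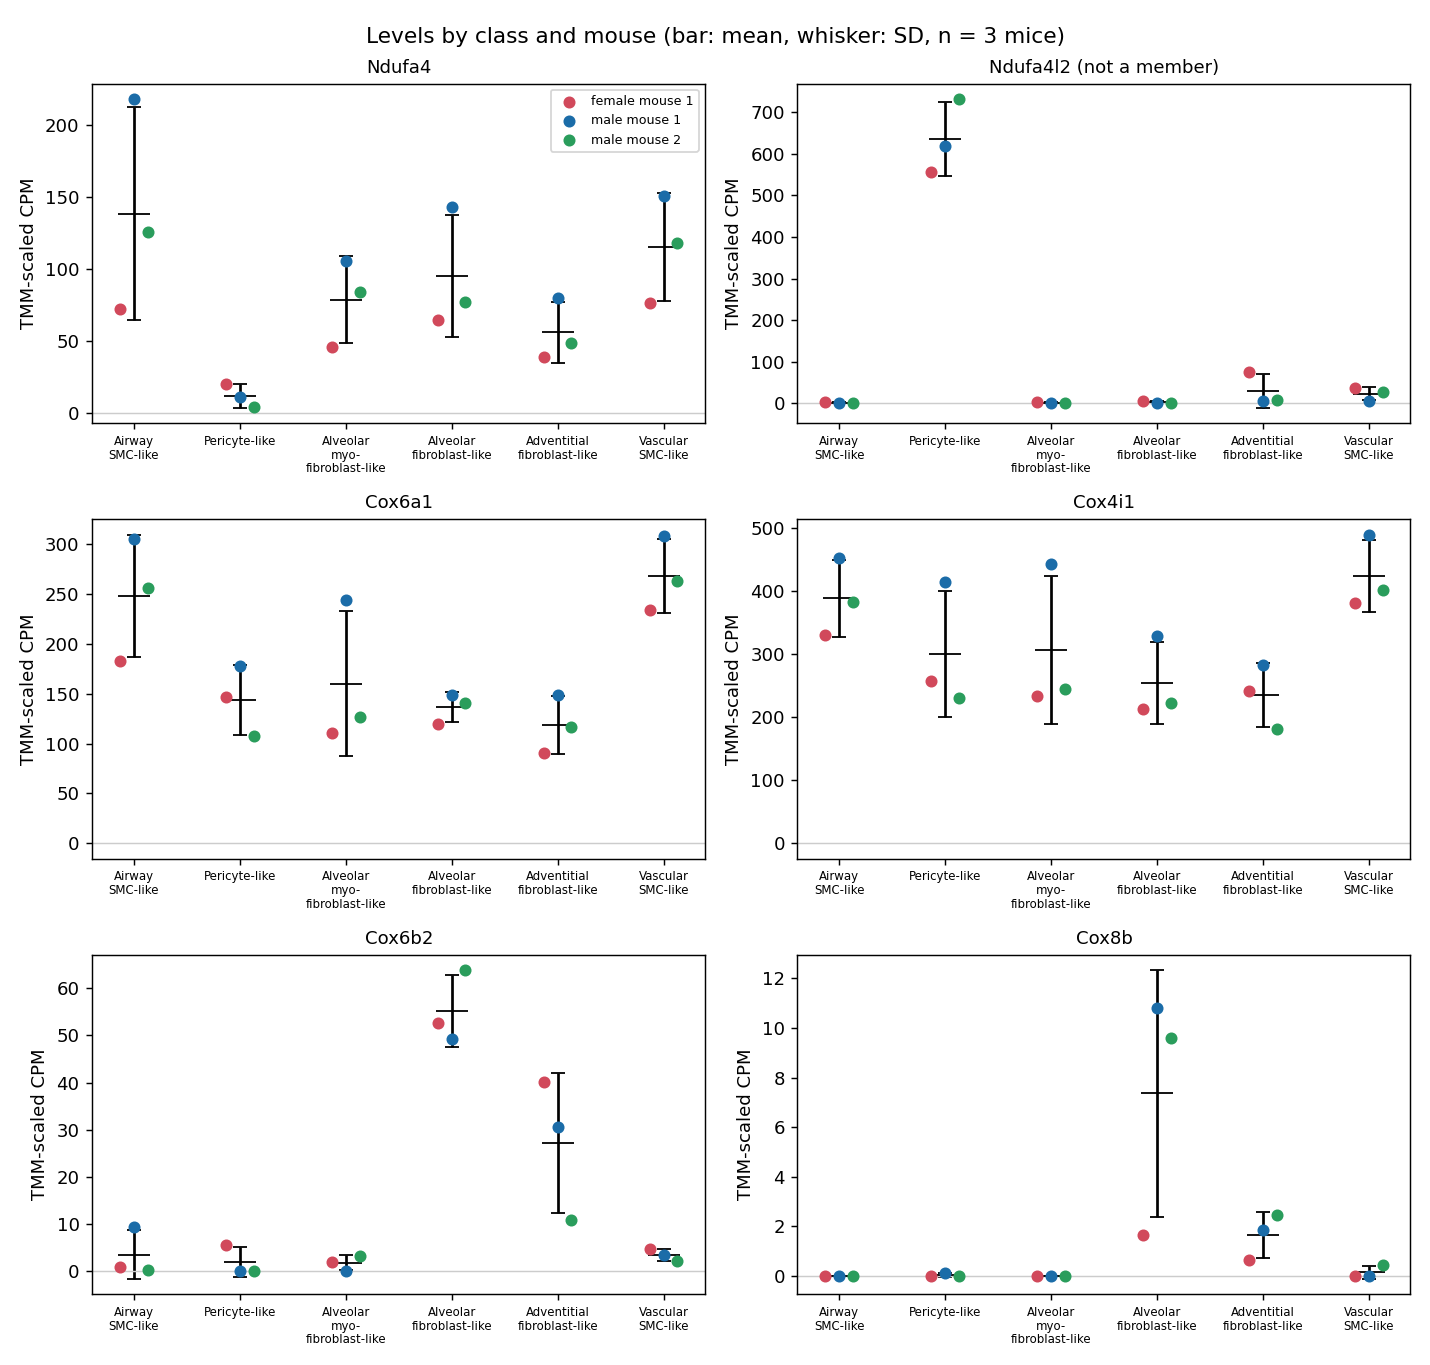
TMM-scaled CPM of 6 genes by class on the x axis, each panel with its own linear y axis; points are the 3 mice, bars the mean and whiskers the SD. Ndufa4 is at 3.95 to 20.2 CPM in pericyte-like cells, below all other classes, while Ndufa4l2, not a member, is at 557.1 to 732 CPM there; Cox6b2 and Cox8b stand highest in alveolar fibroblast-like cells.

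Beyond Ndufa4 no single member passed in pericyte-like cells, while most lay below 0. The median log2 fold change of the 80 was -0.50, against -0.23 for all genes tested, and 71 of the 80 lay below 0. In each of the 3 mice, 54 of the 80 members (67.5%) were lower in pericyte-like than in vascular SMC-like cells, against 26.1% of all genes tested. Unadjusted p lay under 0.05 for 14 members (17.5%), against 15.4% of all genes, and DESeq2 called 9 (11.25%), against 10.6% of all genes, so both shares were near the background. The 9 were all lower: Ndufa4, Cox7b, Uqcrh, Uqcr11, Ndufs6, Ndufa6, Cox6a1, Ndufb5 and Ndufa12. Cox7b, a small subunit of complex IV, had 20.8, 40.5 and 21.96 CPM in pericyte-like against 44.8, 84.3 and 66.1 CPM in vascular SMC-like cells, groups that did not overlap (-1.17 ± 0.44, adjusted p = 0.20, edgeR). By complex the medians were -0.45 for I, -0.37 for II, -0.48 for III, -0.68 for IV and -0.60 for V. Sdha, with 515.2, 675 and 279.3 CPM in pericyte-like against 463.2, 384.8 and 479.3 CPM in vascular SMC-like cells, overlapped. With DESeq2's size factors in edgeR the median of all genes in this comparison shifted to -0.10 and that of the members to -0.37. The members thus lay 0.27 below all genes by TMM and 0.26 below by size factors on the log2 scale. Over the 14 alternatives this distance ran from 0.11 without the filter to 0.41 without the mouse as block, and it was 0.12 with the compared classes alone and 0.18 without the female mouse. By mouse the members' median log2 ratio was -0.47 in the female mouse, -0.50 in male mouse 1 and -0.88 in male mouse 2. All genes stood there at 0.02, -0.37 and -0.77. The distance was widest in the female mouse, while the members' own median was lowest in male mouse 2. Pericyte-like cells numbered 85, 21 and 11 in these mice, and the median of all genes was lower where there were fewer cells. The part of cell number was not tested.

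Alveolar fibroblasts, which lie in the walls of the air sacs, were the second class compared. Cox4i1 and Cox6a1, the common forms of subunits IV and VIa of cytochrome c oxidase, fell in alveolar fibroblast-like against vascular SMC-like cells. Cox4i1 (ENSMUSG00000031818, chr8:120668222-120674207, plus strand) had 212.3, 328.5 and 221.6 CPM in the alveolar fibroblast-like cells of the female mouse, male mouse 1 and male mouse 2, against 380.4, 488.96 and 401.2 CPM in vascular SMC-like cells. The log2 fold change was -0.78 ± 0.21 (adjusted p = 0.0437, edgeR). Its exons overlap those of Emc8, so reads of the pair may not be told apart. Cox6a1 (ENSMUSG00000041697, chr5:115345642-115348981, minus strand), whose promoter holds the 2 NRF1 matches above, had 119.7, 148.5 and 141.2 CPM in alveolar fibroblast-like cells against 233.7, 308.2 and 263.2 CPM in vascular SMC-like cells. Its log2 fold change was -0.98 ± 0.27 (adjusted p = 0.0446, edgeR). For both genes the groups did not overlap.

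These were 2 of 80 members called, where 6.06% of all genes tested were called. Unadjusted p lay under 0.05 for 10 members (12.5%), against 14.7% of all genes, and DESeq2 called 6 (7.5%), against 10.7% of all genes. Both calls were lost when any 1 mouse was left out (Cox4i1 -0.83 to -0.70 and Cox6a1 -0.99 to -0.91 on the log2 scale) and when DESeq2's size factors replaced TMM, and Cox4i1 passed in 6 and Cox6a1 in 9 of 18 alternative settings, always with a fold change below 0. The members' median was -0.47, against -0.07 for all genes tested, and 72 of 80 lay below 0. By mouse the members' median was -0.51 in the female mouse, -0.36 in male mouse 1 and -0.42 in male mouse 2, where all genes stood at 0, -0.10 and -0.07. In each mouse, 57 of 80 (71.25%) were lower in alveolar fibroblast-like than in vascular SMC-like cells, against 25.7% of all genes. Medians by complex were -0.51 for I, -0.19 for II, -0.47 for III, -0.47 for IV and -0.47 for V. Within plates the members' median log2 ratio was -0.67 on 045s, -0.24 on 046s, -0.43 on the plate of male mouse 2 and -0.55 on that of the female mouse.

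Alveolar myofibroblast-like cells, contractile cells of the alveolar region, had no member called against vascular SMC-like cells in edgeR, where 3.8% of all genes tested were called. An unadjusted p under 0.05 was found for 6 members (7.5%), against 14.8% of all genes, and DESeq2 called 2 (2.5%), Cox6a1 and Ndufa3, both lower, against 9.66% of all genes. The median was -0.38, against -0.11 for all genes, with 71 of 80 members below 0. That distance was not shared by the mice. The members' median log2 ratio was -0.53 in the female mouse, -0.29 in male mouse 1 and -0.42 in male mouse 2, where all genes stood at -0.01, -0.29 and -0.19. On plates 045s and 046s the members' medians of -0.41 and -0.36 lay above those of all genes, -0.57 and -0.52. Without the female mouse the members lay 0.10 below all genes, and with sums per plate 0.04. Lower in each mouse were 47 of 80 members (58.75%), against 24.2% of all genes tested. Cox6a1 had 110.4, 243.9 and 126.6 CPM in alveolar myofibroblast-like against 233.7, 308.2 and 263.2 CPM in vascular SMC-like cells, groups that overlapped. Complex III stood at a median of -0.47 and complex IV at -0.56, while complex V stood at -0.28.

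Airway SMC-like cells had no member called against vascular SMC-like cells in edgeR, where 2.15% of all genes were called. An unadjusted p under 0.05 was found for 1 member (1.25%), against 11.5% of all genes, and DESeq2 called 1, Ndufs3 of complex I, higher in airway cells, against 6.54% of all genes. The members' median was 0.11, against -0.16 for all genes tested, and 57 of 80 lay above 0. By mouse the members' median log2 ratio was -0.09 in the female mouse, 0.13 in male mouse 1 and 0.10 in male mouse 2, where all genes stood at -0.08, -0.13 and -0.49. Airway SMC-like cells numbered 27, 41 and 13 in these mice, and the part of cell number was not tested. Markers of cardiomyocytes, cells rich in mitochondria that line pulmonary veins, were also read in these classes. The 8 summed to 67.8, 316.8 and 820.9 CPM in airway SMC-like cells of the female mouse, male mouse 1 and male mouse 2, against 48.1, 79.2 and 49.7 CPM in vascular SMC-like cells. In the males nearly all of the difference was Tnnt2, a troponin, at 43.5, 286.2 and 813.3 CPM in airway SMC-like against 31.1, 51.04 and 25.9 CPM in vascular SMC-like cells. Myh6, Mybpc3 and Nppa were at 0 in the airway SMC-like cells of every mouse, and Myl7 at 0 to 0.2502 CPM. Ryr2 was lower in airway SMC-like than in vascular SMC-like cells of male mouse 1 (14.9 against 21.6 CPM) and male mouse 2 (7.64 against 19.02 CPM). In the female mouse Ryr2 was higher (23.6 against 15.7 CPM). The marker sum in airway SMC-like cells was highest in male mouse 2, the members' median in male mouse 1. The part of these markers in the members' values was not tested. The member with an unadjusted p under 0.05, named after its values were seen, was Uqcrc2, a core subunit of complex III, at 83.03 CPM in airway SMC-like against 158.1 CPM in vascular SMC-like cells (-0.99 ± 0.41, adjusted p = 0.36, edgeR).

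Between alveolar myofibroblast-like and alveolar fibroblast-like cells, where 2.15% of all genes were called in edgeR, no member was called. An unadjusted p under 0.05 was found for 4 (5%), against 12.2% of all genes, and DESeq2 called 2 (2.5%), Cox6b2 and Cox8b, both lower in myofibroblast-like cells, against 7.71% of all genes. The members' median was 0.06, against -0.05 for all genes, with 44 of 80 above 0. All 5 comparisons reuse the same class sums, so their values are not independent of one another.

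**Figure D3:**
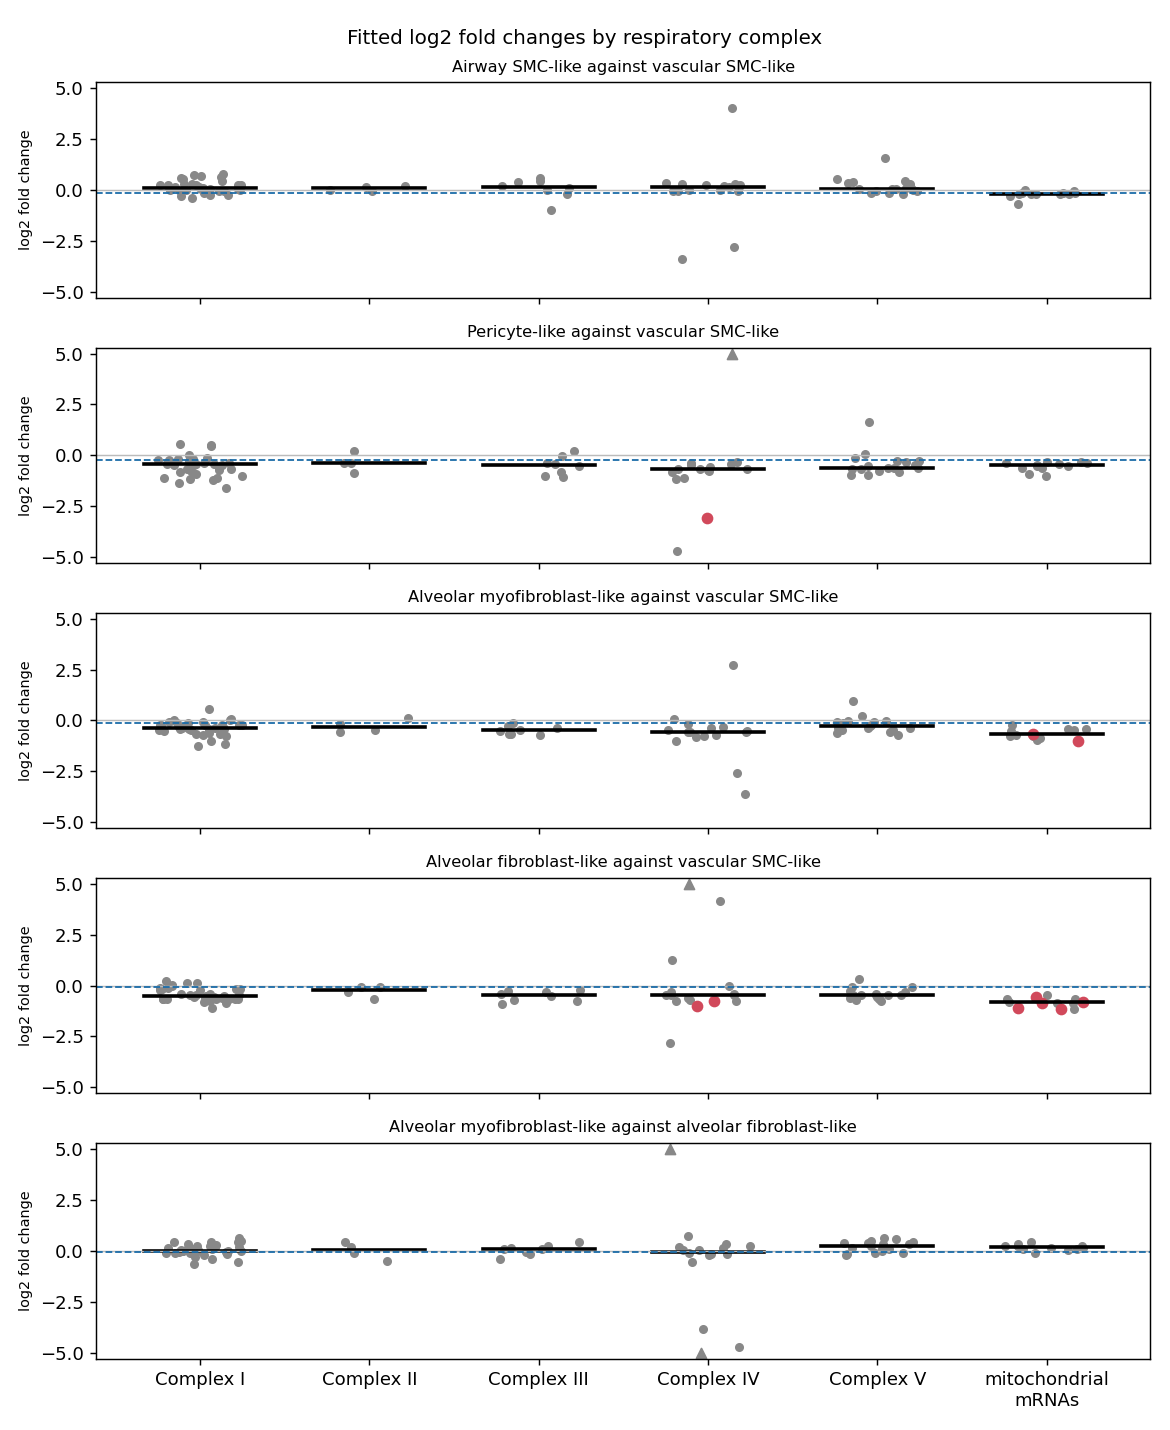
Fitted log2 fold changes (y axis, clipped at 5 in either direction, triangles at the edge) of each tested member by complex and of the mitochondrially encoded mRNAs, 1 panel per comparison. Red points passed an adjusted p under 0.05, black bars are medians and the blue dashed line is the median of all genes tested; 71, 71 and 72 of the 80 members lie below 0 in pericyte-like, alveolar myofibroblast-like and alveolar fibroblast-like cells against vascular SMC-like cells.

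Tissue isoforms of cytochrome c oxidase were among the members with the largest spread of levels over the classes, some of them near 0 in level. Cox6b2, the form of subunit VIb best known from testis, had 52.5, 49.3 and 63.8 CPM in alveolar fibroblast-like cells of the female mouse, male mouse 1 and male mouse 2, against 4.79, 3.45 and 2.11 CPM in vascular SMC-like cells. The groups lay far apart, yet the edgeR test across all genes gave a log2 fold change of 4.17 ± 1.60 with an adjusted p of 0.19, so it was not called. DESeq2 called it (4.21, adjusted p = 0.00971). A count was found in 62.1% of alveolar fibroblast-like cells at a median depth of 311415 counts, against 7.94% of vascular SMC-like cells at 215548 counts. Adventitial fibroblast-like cells had a count in 31 of 69 (44.9%), with 40.01, 30.6 and 10.9 CPM. The other 3 classes averaged 1.82 to 3.57 CPM, and Cox6b2 (ENSMUSG00000051811, chr7:4751792-4753094, minus strand) overlaps no other gene's exons. Its partner Cox6b1, found in most tissues, averaged 87.4 ± 21.4 CPM in alveolar fibroblast-like and 121.2 ± 32.3 CPM in vascular SMC-like cells (SD, n = 3) and was not called.

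Cox8b, the heart and muscle form of subunit VIII, had 1.66, 10.8 and 9.61 CPM in alveolar fibroblast-like cells against 0, 0 and 0.440 CPM in vascular SMC-like cells (log2 fold change 6.17 ± 1.94, adjusted p = 0.11, edgeR; not called). The counts sat in 21 alveolar fibroblast-like cells (13.04%), while the vascular SMC-like counts were 10 in 1 cell. Sums per plate with plate as the block, 1 of the alternatives, called Cox8b (6.61, adjusted p = 0.0256, edgeR). That fit counted each plate of male mouse 1 as a replicate of its own. Its p-value therefore treats plates of the same animal as independent, and the call adds no further mouse. In myofibroblast-like and airway SMC-like cells Cox8b had 0 counts, and in pericyte-like cells 1. Adventitial fibroblast-like cells had a count in 6 of 69 (8.70%). Before TMM scaling they had 0.610, 1.89 and 2.44 CPM in the female mouse, male mouse 1 and male mouse 2. Alveolar fibroblast-like cells had 1.55, 11.3 and 8.96 CPM by that measure, so the 2 fibroblast-like classes overlapped. Cox8a, its common partner, had 115.2, 174.8 and 92.2 CPM in alveolar fibroblast-like against 178.7, 257.1 and 190.998 CPM in vascular SMC-like cells, which did not overlap, and was not called (-0.76 ± 0.28, adjusted p = 0.17).

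Cox7a1 and Cox6a2, the heart and skeletal muscle forms of subunits VIIa and VIa, were near 0. Cox7a1 had counts in 5 of 81 airway SMC-like cells (6.17%), most of them in a single cell, against 69 counts in 14 vascular SMC-like cells (3.004%). Its level over all cells, before TMM scaling, was 13.1 CPM in airway SMC-like and 0.592 CPM in vascular SMC-like cells. Cox6a2 had counts in 2 pericyte-like cells (1.71%), most of them in 1 cell, against 2 counts in 2 vascular SMC-like cells (0.429%). Its unscaled level was 7.43 CPM in pericyte-like and 0.0172 CPM in vascular SMC-like cells. Their class means thus rest on single cells. Cox7a2, the common VIIa form, averaged 51.4 ± 44.003 CPM in pericyte-like, 55.02 ± 20.1 in alveolar fibroblast-like and 82.5 ± 27.6 CPM in vascular SMC-like cells (SD, n = 3) and was called in no comparison. Cox7a2l, a factor that links complexes III and IV, was among the steadiest members, at 142.7 ± 24.1 CPM in pericyte-like, 194.99 ± 51.8 in alveolar fibroblast-like and 196.6 ± 56.7 CPM in vascular SMC-like cells.

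Atp5g1, Atp5g2 and Atp5g3 encode the same mature c-ring protein of complex V from 3 genes. Atp5g3 averaged 45.4 ± 18.9 CPM in pericyte-like, 61.6 ± 31.3 in alveolar myofibroblast-like, 66.996 ± 27.4 in alveolar fibroblast-like and 99.9 ± 28.5 CPM in vascular SMC-like cells (SD, n = 3). Atp5g1 averaged 37.99 ± 18.4 CPM in pericyte-like and 65.2 ± 6.02 CPM in vascular SMC-like cells, and Atp5g2 24.3 ± 10.6 CPM in pericyte-like and 39.6 ± 8.11 CPM in vascular SMC-like cells. All 3 were lower in pericyte-like cells of every mouse and none was called.

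Across the 6 classes, 44 of the 80 members had their highest mean in airway SMC-like and 28 in vascular SMC-like cells. Such ranks can turn on small differences, and their share over all genes is not given here. Between airway and vascular SMC-like cells the members' median was 0.11 and no member was called in edgeR. Higher in airway SMC-like cells were 32 of 80 members in the female mouse, 51 in male mouse 1 and 49 in male mouse 2. Lowest means lay in adventitial fibroblast-like cells for 36 members and in pericyte-like cells for 28, and in vascular SMC-like cells for 0. The smallest spread of mean level over classes, as an SD of log2(CPM + 1), belonged to Sdha (0.14), which ran from 374.3 CPM in alveolar myofibroblast-like to 489.8 CPM in pericyte-like cells. Next came Atp5j and Atp5f1, peripheral-stalk subunits of complex V, at 0.17 and 0.18, then Cox7a2l at 0.19 and Ndufa1 at 0.24. Exons of Atp5j overlap those of Gabpa. The 5 members of largest spread, all of complex IV, were Cox6b2 (1.84), Cox6a2 (1.41), Cox7a1 (1.27), Ndufa4 (1.25) and Cox8b (1.24). Cox6a2, Cox7a1 and Cox8b averaged only 2.01, 1.70 and 1.53 CPM over the classes. They had counts in 14, 37 and 32 of all 1376 cells, so their spread rests on few cells near the floor and shows no pattern of the complex.

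**Figure D4:**
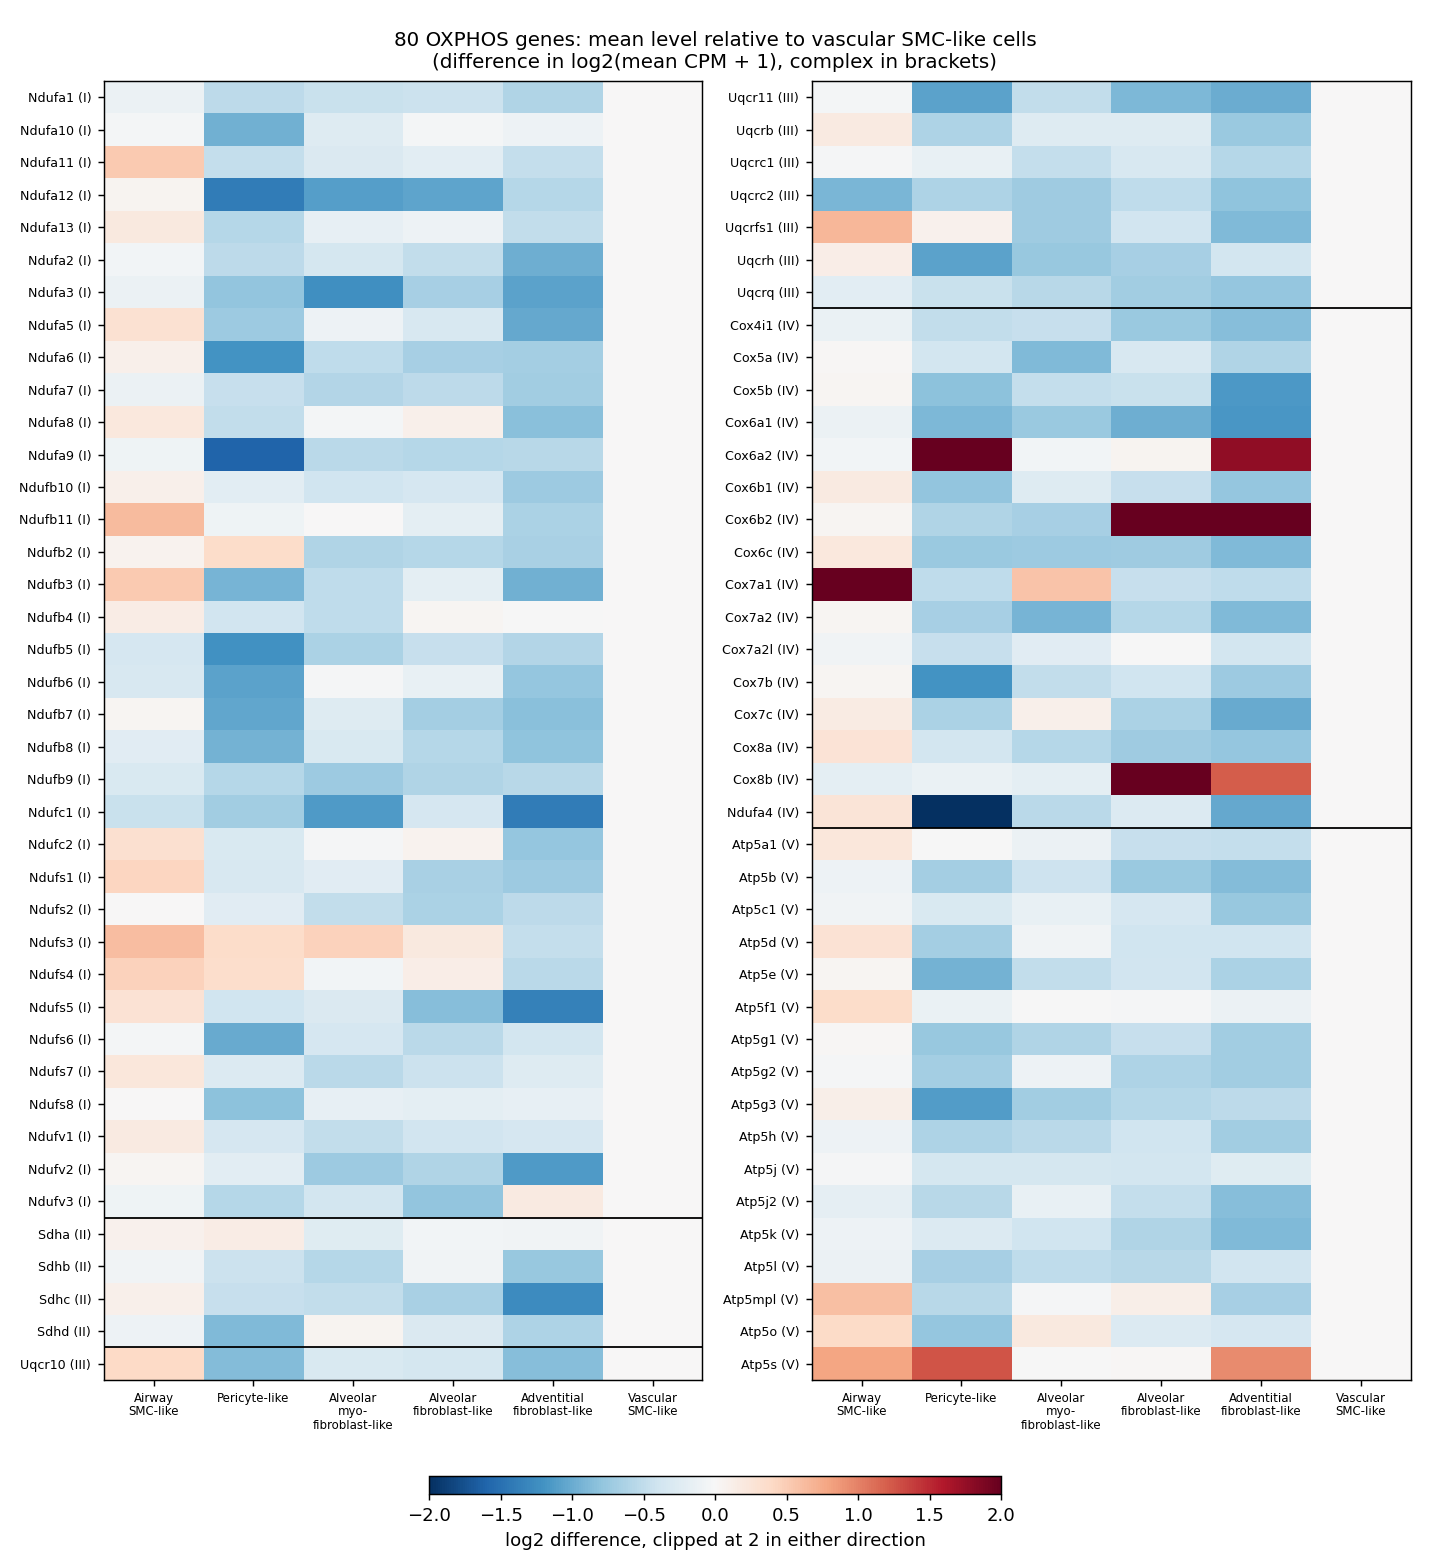
Difference of each member's mean level from that in vascular SMC-like cells, in log2(mean CPM + 1) clipped at 2, for the 80 members that passed the filter (rows, complex in brackets) and the 6 classes (columns, vascular SMC-like last as the level set to 0). Most rows are blue in the pericyte-like and fibroblast-like columns, and Ndufa4 in pericyte-like and Cox6b2 in both fibroblast-like columns stand out from their neighbours.

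The mRNAs read from mitochondrial DNA, which encode the remaining subunits of complexes I, III, IV and V, were set beside the members. Of these 13, 12 passed the filter, mt-Co2 with 36 counts in all being the other. All 12 lay below 0 in each of the 4 classes compared with vascular SMC-like cells. Their medians were -0.18 in airway SMC-like, -0.48 in pericyte-like, -0.68 in alveolar myofibroblast-like and -0.82 in alveolar fibroblast-like cells. In alveolar fibroblast-like cells 5 of the 12 fell, where 6.06% of all genes tested were called: mt-Nd1, mt-Nd4, mt-Nd5, mt-Nd6 and mt-Cytb. mt-Nd5, a proton-pumping subunit of complex I, had 261.96, 794 and 1069 CPM in alveolar fibroblast-like cells of the female mouse, male mouse 1 and male mouse 2, against 568.8, 1643 and 2553 CPM in vascular SMC-like cells. The mice differed widely, and within each mouse the alveolar fibroblast-like value was the lower (-1.16 ± 0.20, adjusted p = 0.00179, edgeR). For mt-Cytb of complex III the values were 639.3, 1875 and 2731 CPM in alveolar fibroblast-like against 1280, 2826 and 5187 CPM in vascular SMC-like cells (-0.85 ± 0.15, adjusted p = 0.00243). Without any 1 mouse mt-Cytb kept its call (-0.94 to -0.76), while mt-Nd5 lost it without male mouse 1 (-1.16, adjusted p = 0.0909) and mt-Nd1, mt-Nd4 and mt-Nd6 lost theirs whichever mouse was left out. Without the mouse as block none of the 5 was called, with every fold change still below 0.

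In alveolar myofibroblast-like cells mt-Nd5 fell by 1.03 ± 0.20 (adjusted p = 0.00658, edgeR) and mt-Nd4 by 0.65 ± 0.16 (adjusted p = 0.0302) on the log2 scale. These were 2 of 12 tested, where 3.8% of all genes tested were called. The mt-Nd4 call was lost without any 1 mouse (-0.73 to -0.53), and that of mt-Nd5 without male mouse 1 (-1.03, adjusted p = 0.19) and without male mouse 2 (-0.82, adjusted p = 0.12). Both were lost without the mouse as block (adjusted p = 0.877 and 0.599). No mitochondrial mRNA was called in pericyte-like or airway SMC-like cells in edgeR. In pericyte-like cells 6 of 12 had an unadjusted p under 0.05, against 15.4% of all genes tested. In airway SMC-like cells 0 did, against 11.5% of all genes tested. Fold changes of mt-Nd1, mt-Nd2, mt-Co1, mt-Atp8 and mt-Atp6 in pericyte-like cells lay between -0.50 and -0.33. mt-Co3, mt-Nd3 and mt-Nd4l were sparse, at 2.40, 4.09 and 1.56 CPM in vascular SMC-like cells. Plate moved with these mRNAs: their share of counts was lowest on the plate of the female mouse, at 0.374% in airway SMC-like, 0.342% in pericyte-like, 0.245% in alveolar fibroblast-like and 0.425% in vascular SMC-like cells. On the plate of male mouse 2 the same classes had 1.44%, 1.09%, 0.905% and 1.63%. The part of plate in the levels was not tested, while the class comparisons above are within mouse.

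Over cells of the same named class and plate, the members' share of counts and that of the mitochondrial mRNAs had a Spearman rho of -0.264 to 0.633, with a median of 0.26, over 17 sets of at least 20 cells. In 14 of the 17 sets rho lay above 0. In vascular SMC-like cells it was 0.296 on 045s, 0.249 on 046s, 0.328 on the plate of male mouse 2 and 0.468 on that of the female mouse, where it rests on 46 cells. With the total count of the cell, which all shares use as divisor, the mitochondrial mRNAs had a median rho of -0.527 and the members one of 0.132. Median depth in the female mouse, male mouse 1 and male mouse 2 was 349348, 352818 and 275002 counts in alveolar fibroblast-like cells. It was 233655, 273212 and 189016 in alveolar myofibroblast-like and 253490, 283421 and 133896 in vascular SMC-like cells. The part of depth in the class differences of these mRNAs was not tested. These are descriptions of cells that share a library plate and carry no test.

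Other genes of energy metabolism were read from lists. In glycolysis and lactate handling, with 25 genes tested, 5 fell and 0 rose in pericyte-like, 3 and 0 in alveolar myofibroblast-like, 4 and 0 in alveolar fibroblast-like and 0 and 0 in airway SMC-like cells against vascular SMC-like cells. Over all genes tested, edgeR called 3.35%, 3.8%, 6.06% and 2.15% in the same order, which is the background for the lists below as well. Pkm, pyruvate kinase, had 509.3, 367.04 and 484.4 CPM in pericyte-like against 970, 807 and 938 CPM in vascular SMC-like cells (-0.94 ± 0.15, adjusted p = 0.0027). Gapdh fell too in pericyte-like cells (-1.35 ± 0.26, adjusted p = 0.00818). The insulin-responsive glucose transporter Slc2a4 averaged 0.741 ± 0.464 CPM in alveolar fibroblast-like against 212.7 ± 62.9 CPM in vascular SMC-like cells (adjusted p = 0.00413). List medians were -1.35, -0.71 and -0.78 in pericyte-like, alveolar myofibroblast-like and alveolar fibroblast-like cells, each below the members' median in that comparison.

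Of 19 genes of fatty acid oxidation, Cpt1b, the muscle form of the enzyme that admits fatty acids to mitochondria, fell in all 4 classes against vascular SMC-like cells. It averaged 0.255 ± 0.256 CPM in airway SMC-like, 0.439 ± 0.0919 in pericyte-like, 0.906 ± 0.843 in alveolar myofibroblast-like, 0.294 ± 0.126 in alveolar fibroblast-like and 29.3 ± 12.8 CPM in vascular SMC-like cells. Acadvl, which starts the oxidation of very long chains, fell in pericyte-like cells (98.6 ± 25.99 against 284.6 ± 90.3 CPM in vascular SMC-like, adjusted p = 0.0343). Among 16 tested carriers, Slc25a4, the muscle-type ADP/ATP exchanger, fell in pericyte-like (338.95 ± 92.8 against 630.1 ± 52.1 CPM in vascular SMC-like, adjusted p = 0.0295) and alveolar fibroblast-like cells (365.9 ± 12.5 CPM, adjusted p = 0.0243). Creatine kinase Ckb fell in alveolar myofibroblast-like (adjusted p = 0.00372) and alveolar fibroblast-like cells (adjusted p = 0.00012).

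No gene was called in any of the 5 comparisons by edgeR among 21 of the tricarboxylic acid cycle, 20 regulators of mitochondrial biogenesis, 49 assembly factors, 10 mitochondrial antioxidant genes and 78 mitochondrial ribosomal proteins. In pericyte-like cells their medians were -0.40, -0.71, -0.44, -0.65 and -0.49 in that order, against -0.23 for all genes tested. Cytosolic ribosomal proteins had a median of -0.54 there, with 1 of 76 called, Rpl4 (-0.68 ± 0.15, adjusted p = 0.0196). The members' median of -0.50 lay within the range of these medians.

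Immediate early and heat shock genes, which respond to tissue dissociation among other stimuli, moved with the classes as well. Of 28 tested, 5 rose in airway SMC-like cells (Junb averaged 3205 ± 535.7 CPM in airway SMC-like and 1068 ± 294.9 CPM in vascular SMC-like cells). In pericyte-like cells 4 fell, among them Atf3 (223.4 ± 209.1 CPM, against 1037 ± 212.2 CPM in vascular SMC-like) and Hspb1. In alveolar myofibroblast-like cells 3 rose and 1 fell, and in alveolar fibroblast-like cells 3 rose. List medians were 0.75, -1.10, 0.07 and 0.24 in airway SMC-like, pericyte-like, alveolar myofibroblast-like and alveolar fibroblast-like cells. Their part in the members' differences was not tested.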

How the data were processed

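The authors deposited raw read counts per Ensembl gene and cell, and per the submitters' processing notes bcl2fastq, Bowtie, Bowtie2, Subread and featureCounts were used with GRCm38 and mm10, without roles or versions. Symbols and exons came from GENCODE release 21 for mouse and promoters from RefSeq GRCm38.p6. All columns of the table were used (0 left out), and no cell was removed and no doublet caller was run.

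The members, gene lists and comparisons were chosen with earlier results of these data known. Genes other than members and mitochondrially encoded genes were split at random into equal parts. Cells were scaled to 10000 counts, log-transformed and clustered on 2000 variable genes of 1 part (30 principal components, 15 neighbours, Leiden resolution 1, seed 1). Tests between those classes covered members, mitochondrial genes and genes outside that part, and classes made in the same way from the remaining genes served to test the clustered ones. A cluster took a name with at least 3 of its markers in 25% of its cells, a lead of 0.1 over the next class, and leading genes not against it. This naming rule was set after the clusters were seen, without the members' values; 2 clusters stayed unnamed.

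Counts were summed per class and mouse, as cells are not replicates, and plates 045s and 046s count as 1 mouse. edgeR 4.0.16 (TMM, filterByExpr, quasi-likelihood test, two-sided) was fitted to 6 classes with at least 10 cells in each of 3 mice: airway SMC-like (81 cells), pericyte-like (117), alveolar myofibroblast-like (107), alveolar fibroblast-like (161), adventitial fibroblast-like (69) and vascular SMC-like (466). Mouse was the block, because sums of the same mouse come from the same animal. P-values were adjusted by Benjamini-Hochberg over all 16339 genes tested. It called 351 genes in airway SMC-like, 547 in pericyte-like, 621 in alveolar myofibroblast-like and 990 in alveolar fibroblast-like against vascular SMC-like cells, and 352 between alveolar myofibroblast-like and alveolar fibroblast-like cells. The SE is the log2 fold change over the root of F. With mouse as block, p-values rest on how class differences vary among these 3 mice, with the spread estimated over all 6 classes. They do not measure the spread of levels between the animals. DESeq2 1.42.0 and 17 other settings were alternatives, which the closing section describes. In simulated data for pericyte-like against vascular SMC-like cells, with changed genes drawn from the members' range of counts, 0 of 68 genes changed by 1 on the log2 scale were called, 3 of 66 changed by 2, 23 of 66 changed by 3, and 1 of 16909 unchanged genes. Fewer genes were changed there than the 547 called in the data, which makes the adjustment over all genes stricter. These shares therefore do not give what the data could resolve, where Rpl4 was called at -0.68 in this comparison.

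Genes named are tissue isoforms and their common partners, called members, the extremes of level per kilobase and of spread over classes, the 13 mitochondrial mRNAs and up to 2 called genes per list, direction and comparison. Ndufa4l2 and Cox4i2 were added as paralogues left out by the rule, and genes called by DESeq2 are listed by name. Depth is given as total counts, and shares cover counting without molecular identifiers.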

Additional observations from a re-analysis of the deposited data

Results flagged for a closer look

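Of the clusters that took no class name, cluster 5 (median 125337 counts a cell) was used in no comparison, and its members' share of counts was 2.71% on plate 045s and 2.28% on plate 046s, against 1.25% and 1.40% in vascular SMC-like cells of those plates. Its mitochondrial mRNAs took 2.84% and 2.49%, against 1.15% and 1.07% in vascular SMC-like cells. By summed CPM, 64 of the 82 members were higher in cluster 5 than in vascular SMC-like cells. Complex I alone took 1.11% there on plate 045s, against 0.418% in vascular SMC-like cells, while complex II took 0.0687% against 0.0930%. One member, Ndufc1, stood among its 10 leading genes, with Ccl6 and Spry2. A count was found for a median of 39 members a cell on plate 045s, against 64 in vascular SMC-like cells, so fewer members carried more of the counts. The cluster's lower depth moved with these values and its part in them was not tested.

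By TMM-scaled sums per mouse, the median log2 ratio of the members had opposite signs in the female and both male mice in 2 comparisons. Airway SMC-like against vascular SMC-like cells gave -0.0851 in female mouse 1, against 0.126 in male mouse 1 and 0.0997 in male mouse 2. All genes stood at -0.0842, -0.134 and -0.486 there, so the female value of the members was near that of all genes. Alveolar myofibroblast-like against alveolar fibroblast-like cells gave -0.0958 in female mouse 1, against 0.0526 in male mouse 1 and 0.0262 in male mouse 2. Within plates, before TMM scaling, this contrast did not hold. The plate of the female mouse gave 0.00629 and that of male mouse 2 gave 0.0679. The plates of male mouse 1 themselves differed in sign, with 0.341 on 045s and -0.123 on 046s. Neither difference was tested, and sex, animal and plate cannot be told apart; sex is as the sample labels give it, while the series description names males alone.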

How the results depend on the processing

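In all 18 alternatives where a comparison could be made, the members' median log2 fold change kept its sign for airway SMC-like (0.01 to 0.20), pericyte-like (-0.63 to -0.37), alveolar myofibroblast-like (-0.45 to -0.30) and alveolar fibroblast-like (-0.50 to -0.39) against vascular SMC-like cells. Set against the median of all genes, also below 0, the members lay 0.11 to 0.41 lower in pericyte-like, 0.04 to 0.39 lower in alveolar myofibroblast-like and 0.28 to 0.45 lower in alveolar fibroblast-like cells, and 0.18 to 0.49 higher in airway SMC-like cells. For alveolar myofibroblast-like against alveolar fibroblast-like cells the members' median changed sign (main 0.06): leaving out each mouse gave -0.039 to 0.0801, sums per plate -0.0416 and classes from the other part of the genes -0.0214. For alveolar fibroblast-like against vascular SMC-like cells, leaving out each mouse gave medians of -0.49 to -0.39. Summed shares moved by less than 1 SD in every setting run.

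Calls of members depended on the fit. DESeq2 called 1 in airway SMC-like, 9 in pericyte-like, 2 in alveolar myofibroblast-like and 6 in alveolar fibroblast-like against vascular SMC-like cells, and 2 between alveolar myofibroblast-like and alveolar fibroblast-like cells; over all genes it called 1069, 1731, 1579, 1754 and 1260 in that order, where edgeR called 2.15%, 3.35%, 3.8%, 6.06% and 2.15% of 16339. Leaving out a mouse cut calls over all genes as well, to 0.498% to 0.998% in airway SMC-like, 0.534% to 1.58% in pericyte-like, 1.06% to 1.89% in alveolar myofibroblast-like and 2.23% to 3.001% in alveolar fibroblast-like against vascular SMC-like cells, and to 0.528% to 0.870% between alveolar myofibroblast-like and alveolar fibroblast-like cells. With only the compared classes edgeR called 1.47% of genes in the pericyte-like and 11.9% in the alveolar fibroblast-like comparison. For pericyte-like cells, leaving out each mouse gave 0 to 1 called members and fitting only the compared classes 0. For alveolar fibroblast-like cells, 0 were called when any mouse was left out, with DESeq2's size factors in edgeR, without the filter, with classes from all variable genes, and without the replicate block; 1 with sums per plate, classes from the other part, Leiden resolution 2, cells scaled to the same total, the stricter cell filter or 1000 variable genes; and 4 with only the compared classes. Between alveolar myofibroblast-like and alveolar fibroblast-like cells, sums per plate and Leiden resolution 2 each called 1. Sums per plate count each plate of male mouse 1 as a replicate of its own, so calls in that setting treat plates of the same animal as independent. Without the block that pairs sums of the same mouse, Ndufa4 in pericyte-like cells kept its call (-3.19, adjusted p = 0.0136), as it did in 11 of 14 settings. Settings with 1000 variable genes or a naming margin of 0.25 were chosen after seeing the data. The pericyte-like comparison could not be made with Leiden resolution 0.5, the stricter cell filter, 1000 variable genes or that margin, which left under 10 cells in a mouse. The pericyte-like comparison rests on 3 mice and on 11 pericyte-like cells in male mouse 2, so a member without a call is not shown to be unchanged. The part of depth in the calls was not tested.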

Other observations

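Counts of the mitochondrially encoded mRNAs were uneven in a way that length does not follow. Over all cells mt-Cytb had 933162 counts, mt-Nd1 607519, mt-Co1 566660 and mt-Nd5 426624. mt-Co3 had 886, mt-Nd3 1213 and mt-Co2 36, although the annotated lengths of mt-Co2 (684 bases) and mt-Atp6 (681 bases, 41376 counts) are nearly equal. The cause was not tested.

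Unnamed cluster 2, with cells from all 3 mice, had a members' share of 1.08% ± 0.221, near the 1.09% ± 0.198 of vascular SMC-like cells (SD, n = 3 mice). Macrophage-like cells of male mouse 1 had 1.21% on plate 045s and 1.05% on plate 046s, against 1.25% and 1.40% in vascular SMC-like cells of those plates. Endothelial-like cells, found on the plate of the female mouse, had 0.765%, against 0.956% in vascular SMC-like cells there.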
